A study of Schizosaccharomyces pombe with 31 samples.

Results

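The genes that bring ammonium into fission yeast cells and build it into amino acids were followed here through nitrogen starvation and through overexpression of the Greatwall kinase Ppk18. The group holds 10 of the 7001 genes in the deposited tables, chosen by name and identifier and not by their values. They are the ammonium transporter genes amt1 (SPCPB1C11.01), amt2 (SPAC664.14) and amt3 (SPAC2E1P3.02c), the enzyme genes gln1 (SPAC23H4.06), glt1 (SPAPB1E7.07), gdh1 (SPCC622.12c) and gdh2 (SPCC132.04c), the transcription factor gene gaf1 (SPCC1902.01), and the starvation genes isp7 (SPAC25B8.13c) and isp4 (SPBC29B5.02c). All 10 had a mean normalized count of at least 10 in both tables and were tested.

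RNA was sequenced from 3 cultures per group of an endosulfine deletion strain (h- igo1::kanMX6, igo1∆), a Greatwall double deletion strain (h- ppk18::KanMX6 cek1::natMX6, ppk18∆ cek1∆) and the wild type (h- 972). Each strain was sampled at 25 °C in minimal medium with ammonium (MM), at 1 h and at 4 h after transfer to the same medium without nitrogen (MM-N), which gives 27 libraries. In a second experiment, 2 cultures of a strain that expresses GFP-tagged ppk18+ from the nmt1+ promoter (h- P3-nmt1-GFP-ppk18) and 2 of the wild type were grown in MM for 20 h without thiamine, which turns the promoter on. The time label of these 4 samples is 0 h, and the 20 h come from the treatment protocol. The labels give 1 strain for each genotype, and whether more than 1 clone was used is not stated. The labels call the samples of a group bio reps, and the paper describes them as independent experimental replicates. How their cultures were started is not stated further. Where cultures of a group were started together, p-values measure only the spread between these samples.

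Ammonium crosses the plasma membrane through transporters of the Amt family. Inside the cell it is joined to alpha-ketoglutarate by the NADP-dependent glutamate dehydrogenase Gdh1, or to glutamate by glutamine synthetase, Gln1. Glutamate synthase, Glt1, then turns glutamine and alpha-ketoglutarate back into glutamate, and the NAD-dependent glutamate dehydrogenase Gdh2 works in the direction of breakdown and releases ammonium from glutamate. Gaf1 is a GATA-type transcription factor that acts in fission yeast when the growth kinase complex TORC1 is inactive. Isp7 is an oxygenase-family protein tied to amino acid uptake, and Isp4 is a transporter of oligopeptides. The Greatwall kinases Ppk18 and Cek1 phosphorylate the endosulfine Igo1, which then inhibits the phosphatase PP2A bound to its B55 subunit.

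Gene counts summed to 14921656 to 22464897 reads per library in the time course and to 14612909 to 18846318 in the overexpression experiment. The genes deleted or overexpressed were checked first. In ppk18∆ cek1∆ cells, ppk18 had 142 to 246 normalized counts, against 3776 to 5746 in the wild type, and cek1 had 23.9 to 165, against 2884 to 3811. In the overexpression strain ppk18 had 344147 and 374000, against 4967 and 4969 in the wild type. In the libraries labelled igo1∆, igo1 (SPAC10F6.16) kept 1507 to 2577 normalized counts, against 2598 to 3317 in the wild type. Its count was lower at each time, by 0.62 in MM, 0.44 at 1 h and 0.82 at 4 h on the log2 scale (limma, adjusted p = 3.68e-05, 1.64e-05 and 6.58e-10), but was not lost. Only 35.6% of the exon bases of igo1 are coding in the RefSeq annotation, and the part replaced by the marker is not stated in the labels, so these counts do not settle the genotype, and the cells are called igo1∆ here by their label. The M-cell genes mfm1, mfm2, mfm3 and mam2 were read in every group and had summed counts of 172 to 311 in igo1∆ and 300 to 412 in ppk18∆ cek1∆ cells at 4 h, against 14386 to 20709 in the wild type.

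By the median gene, replicate 3 of ppk18∆ cek1∆ at 4 h lay furthest from its group among the libraries of the time course. The median gene in it lay 0.12 on the log2 scale from the mean of the other 2 libraries, against 0.06 to 0.10 in the other 26 libraries of the time course. It had 1.99 times their mean for isp4, 1.51 times for gaf1, 1.44 times for amt1 and 1.44 times for isp7. In replicate 1 of the wild type at 1 h the median distance was 0.10. The genes over 2-fold from the rest of the group were 105 in the outlying library, against 112 in replicate 3 of ppk18∆ cek1∆ in MM. Without it, 8 of the 10 genes differed between ppk18∆ cek1∆ cells and the wild type at 4 h in place of 9, and the median of their log2 fold changes was 0.60 in place of 0.79. The differences of the 10 genes from the wild type in this group at 4 h are therefore also given without replicate 3. Across conditions, the authors' normalization leaves the sum of normalized counts at 20658631 to 22644212 in MM and at 15401600 to 18860911 in MM-N. Giving all libraries an equal total moves the log2 fold change of the median gene by 0.27 to 0.47 in starvation against MM and by -0.18 and -0.19 in the mutants against the wild type at 4 h, so small changes depend on this choice. A bulk count cannot tell fewer cells that express a gene from less RNA of it in each cell.

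The first question was how the wild type changed these genes when nitrogen was withdrawn. At 1 h in MM-N, 8 of the 10 genes passed the test (limma, adjusted p below 0.05), 7 higher and 1 lower, and at 4 h 9 passed it, 6 higher and 3 lower. Of the 6036 genes tested, 77.8% passed it at 1 h (40.3% higher and 37.5% lower) and 79.4% at 4 h (39.9% higher and 39.4% lower), so these counts lie close to the background. Between 1 h and 4 h, 7 of the 10 genes changed, 2 higher and 5 lower, against 57.8% of all genes (27.1% higher and 30.7% lower). The median of the 10 genes was a log2 fold change of 0.62 at 1 h and 0.45 at 4 h, beside 0.04 and 0.01 for all genes. Among all genes called, 51.8% were higher at 1 h and 50.3% at 4 h, and these shares were 74.2% and 73.6% when all libraries were given an equal total. The size of the changes differed widely between the 10 genes, from a rise of 4.11 for isp4 to a fall of 1.40 for gdh1 on the log2 scale at 4 h.

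**Figure D1:**
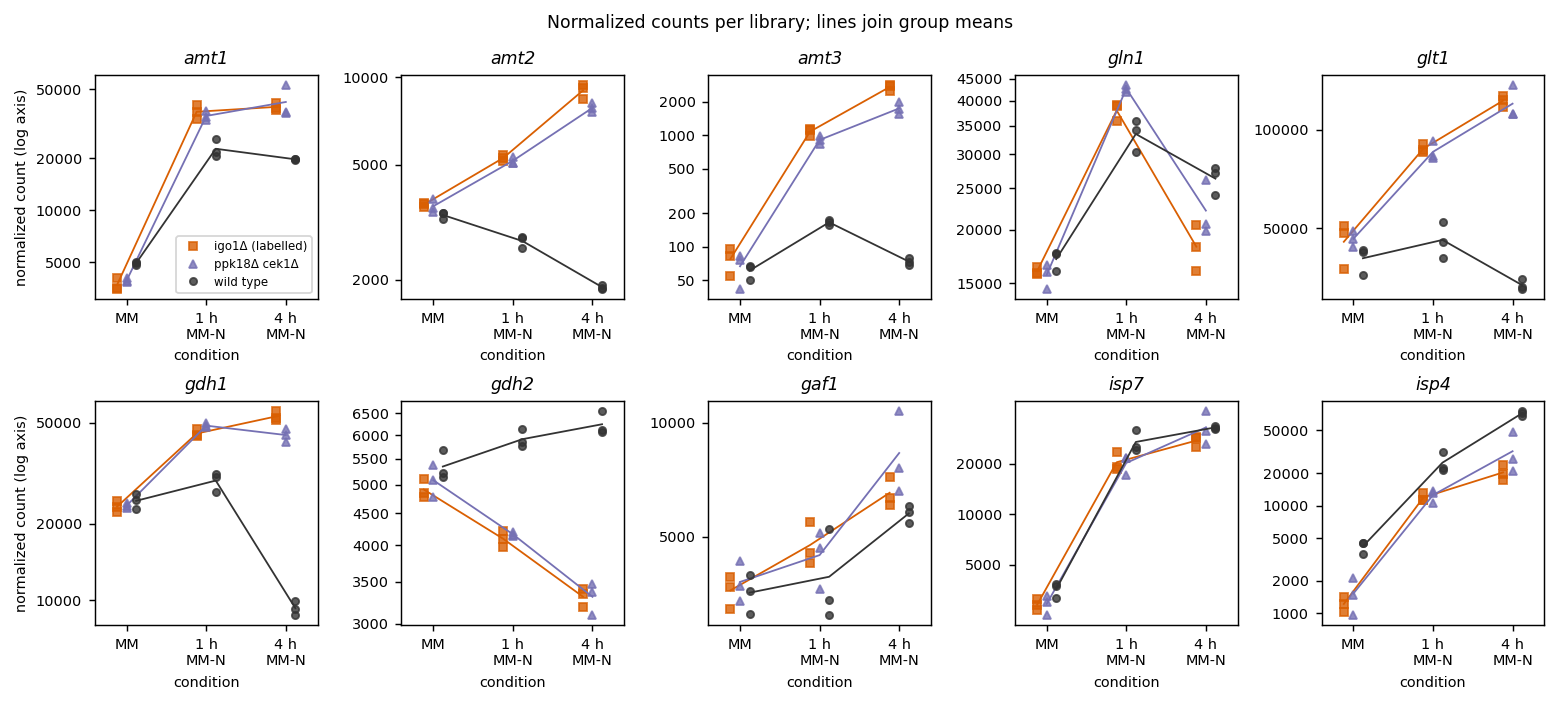
Normalized counts of the 10 genes (vertical axis, log scale, a separate range for each panel) in MM, at 1 h and at 4 h of starvation. Each point is 1 library of igo1∆ (squares), ppk18∆ cek1∆ (triangles) or the wild type (circles), and lines join the means of 3 libraries. At 4 h the mutant libraries lie above those of the wild type for amt1, amt2, amt3, glt1 and gdh1, and below them for gdh2 and isp4. Those of gaf1 also lie above, narrowly in igo1∆ (lowest 6051, against a highest of 6023 in the wild type).

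Of the transporters, amt1 rose and amt2 fell in the starved wild type. The gene amt1 had 25888, 21581 and 20454 normalized counts at 1 h, against 5051, 4858 and 4959 in MM, a log2 fold change of 2.18 ± 0.10 (SE, adjusted p = 3.88e-15). It stayed at 19829, 19803 and 19413 at 4 h (1.99 ± 0.10, adjusted p = 2.21e-14), and the difference between 4 h and 1 h did not pass the test (-0.19 ± 0.10, adjusted p = 0.118). No starved library overlapped those in MM. In contrast, amt2 fell at each step. It had 3413, 3233 and 3403 normalized counts in MM, 2567, 2820 and 2780 at 1 h and 1880, 1922 and 1860 at 4 h, with log2 fold changes against MM of -0.30 ± 0.05 (adjusted p = 3.63e-06) and -0.83 ± 0.05 (adjusted p = 8.13e-14). The fall at 1 h turned into a value of 0.13 with equal totals (adjusted p = 0.060), and the fall at 4 h kept its direction and its call there.

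The remaining transporter gene, amt3, was read at a far lower level and rose only at 1 h. Its normalized counts were 65.7, 50.4 and 66.5 in MM, 157, 173 and 166 at 1 h and 68.3, 73.2 and 79.0 at 4 h. The log2 fold change was 1.44 ± 0.19 at 1 h (adjusted p = 3.65e-07) and 0.28 ± 0.19 at 4 h, which did not pass the test (adjusted p = 0.189, 0.74 with equal totals and adjusted p = 0.0016). Between 1 h and 4 h amt3 fell again, by 1.16 on the log2 scale (adjusted p = 1.83e-05).

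Most of the bases of amt2 and amt3 lie under genes on the other strand. The libraries were made with a stranded kit, and the strand setting of the counting is not given in the sources used here. Over amt2, 70.5% of the exon bases are covered by the non-coding RNA gene SPNCRNA.758, which had 0.924 to 15.6 normalized counts in the time course, far below the lowest amt2 library at 1860. Over amt3, 98.6% of the exon bases are covered by SPAC2E1P3.01 and the non-coding SPNCRNA.859, which had means of 254 to 1224 and 309 to 829 normalized counts over the 9 groups. In wild type cells SPNCRNA.859 was also higher at 1 h than in MM (0.87 on the log2 scale, adjusted p = 6.79e-09), while SPAC2E1P3.01 was lower (-1.28, adjusted p = 1.92e-10). At 4 h in igo1∆, where amt3 was highest, these 2 genes had means of 340 and 309 normalized counts, against 2725 for amt3, so most of its counts there were not counted for the genes across from it as well. In the wild type the means of amt3 lay below those of both genes at each time, and a share of their reads in its count was not tested there. Non-coding genes of the RefSeq annotation that were not analysed here also lie across from 96.3% of the exon bases of amt1, 76.1% of those of gln1, 92.2% of glt1 and 96.1% of isp4, and smaller shares of gdh1, gdh2, gaf1 and isp7 are covered by them. Their reads would be told apart from those of the genes only in a count by strand.

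Among the enzymes of assimilation, gln1 rose in the starved wild type and gdh1 fell late. Glutamine synthetase, gln1, had 34174, 35862 and 30303 normalized counts at 1 h, against 16047, 17590 and 17605 in MM (0.97 ± 0.09, adjusted p = 1.66e-09), and 24065, 27797 and 27080 at 4 h (0.62 ± 0.09, adjusted p = 1.90e-06). The biosynthetic dehydrogenase gdh1 showed the largest fall of the 10 genes at 4 h. It had 22809, 24724 and 26253 normalized counts in MM, 26741, 31503 and 30408 at 1 h and 8712, 9922 and 9224 at 4 h. The change was 0.26 ± 0.07 at 1 h (adjusted p = 0.000896) and -1.40 ± 0.07 at 4 h (adjusted p = 2.04e-15). At 4 h this leaves 0.38 of the level in MM under the authors' normalization. The shift of the median gene with equal totals, 0.42 at 1 h and 0.47 at 4 h, was larger than the rise and smaller than the fall.

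Glutamate synthase and the catabolic dehydrogenase moved little in the wild type under the authors' normalization, and changes of this size depended on the scaling. For glt1, 34918, 32644 and 33032 normalized counts at 4 h stood against 42945, 36121 and 42465 in MM (-0.27 ± 0.11, adjusted p = 0.0252). This call was lost without wild type MM replicate 1 or 3 (-0.22 and -0.23) and without 4 h replicate 2 or 3 (-0.25 and -0.26), and its direction turned to 0.20 with equal totals. At 1 h, glt1 did not pass the test (0.18 ± 0.11, adjusted p = 0.123) and its libraries overlapped those in MM, while without 1 h replicate 3 it passed (0.27). It also passed with equal totals (0.61, adjusted p = 2.66e-06) and with quantile normalization (0.65, adjusted p = 2.76e-06). The gene gdh2 had 6120, 6065 and 6559 normalized counts at 4 h, against 5228, 5138 and 5677 in MM (0.22 ± 0.05, adjusted p = 0.000291). Its rise of 0.15 ± 0.05 at 1 h (adjusted p = 0.0111) was lost without MM replicate 2 or without 1 h replicate 1 (0.12 each). With equal totals the log2 fold change of the median gene moved up by 0.42 at 1 h and 0.47 at 4 h, more than either rise of gdh2.

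The peptide transporter isp4 and the oxygenase gene isp7 rose most among the 10 genes in the wild type. The gene isp4 had 4527, 4461 and 3584 normalized counts in MM, 31197, 22452 and 21519 at 1 h and 75382, 67954 and 72399 at 4 h. Its log2 fold change was 2.57 ± 0.25 at 1 h (adjusted p = 1.54e-09) and 4.11 ± 0.25 at 4 h (adjusted p = 2.45e-13), a 17.2-fold rise that placed it at rank 45 of 6036 genes. The gene isp7 had 3710, 3818 and 3160 normalized counts in MM, 31712, 25100 and 24174 at 1 h and 32825, 32407 and 33793 at 4 h. It had reached most of its rise by 1 h, with changes of 2.92 ± 0.14 (adjusted p = 3.42e-15) and 3.22 ± 0.14 (adjusted p = 4.73e-16), whereas isp4 rose by a further 1.54 ± 0.25 between 1 h and 4 h (adjusted p = 1.21e-05).

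The transcription factor gene gaf1 changed late. It had 6023, 5442 and 5801 normalized counts at 4 h, against 3954, 3589 and 3114 in MM (0.70 ± 0.17, adjusted p = 0.000894), and all 3 libraries at 4 h lay above those in MM. At 1 h its libraries were spread from 3096 to 5252 and overlapped those in MM (0.11 ± 0.17, adjusted p = 0.581, 0.54 and adjusted p = 0.0061 with equal totals). Replicate 1 at 1 h was the highest of its group for amt1, gaf1, glt1, isp7 and isp4.

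The next comparison set the mutants beside the wild type while nitrogen was present. In MM, 2 of the 10 genes passed the test in igo1∆ cells and 1 in ppk18∆ cek1∆ cells, all of them lower. Of all genes 2.15% passed it in igo1∆ (0.961% higher and 1.19% lower) and 1.67% in ppk18∆ cek1∆ cells (0.729% higher and 0.944% lower). The peptide transporter isp4 was lower in both mutants, with 1420, 1023 and 1230 normalized counts in igo1∆ and 2134, 1489 and 962 in ppk18∆ cek1∆ cells, against 4527, 4461 and 3584 in the wild type. Every mutant library lay below every wild type library, and the log2 fold changes were -1.78 ± 0.25 (adjusted p = 0.000226) and -1.52 ± 0.25 (adjusted p = 0.000989). By size of fall, isp4 had rank 3 of 6036 genes in igo1∆ and rank 7 in ppk18∆ cek1∆ cells.

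Before starvation amt1 was also read at a lower level in the mutants. It had 3518, 3554 and 4062 normalized counts in igo1∆ and 4051, 3845 and 3900 in ppk18∆ cek1∆ cells, against 5051, 4858 and 4959 in the wild type. The difference was -0.42 ± 0.10 in igo1∆ (adjusted p = 0.0344), a call that was lost in edgeR (adjusted p = 0.068) and without any of wild type replicates 1, 2 and 3 or igo1∆ replicates 1 and 2 (-0.43 to -0.38). In ppk18∆ cek1∆ it was -0.33 ± 0.10 and did not pass the test (adjusted p = 0.125, 0.0141 with only the groups compared). The other genes did not pass the test, and their intervals differed in width. For gdh1 the 95% interval of the log2 fold change was -0.21 to 0.06 in igo1∆ cells and -0.20 to 0.08 in ppk18∆ cek1∆ cells. It was wider for gaf1, at -0.34 to 0.38 in igo1∆ cells and -0.27 to 0.46 in ppk18∆ cek1∆ cells, and for amt3, at -0.08 to 0.71 and -0.32 to 0.47. The value of amt3 in igo1∆ was 0.32 and ran from 0.15 to 0.55 when a library was left out.

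The main contrast in the series is between the mutants and the wild type after nitrogen was removed. At 1 h, 8 of the 10 genes differed in the libraries labelled igo1∆, 5 higher and 3 lower, and 9 in ppk18∆ cek1∆ cells, 6 higher and 3 lower. Of all genes 62.5% differed in igo1∆ (32.6% higher and 29.9% lower) and 59.2% in ppk18∆ cek1∆ cells (30.5% higher and 28.7% lower). At 4 h, 8 differed in igo1∆, 5 higher and 3 lower, and 9 in ppk18∆ cek1∆, 6 higher and 3 lower. Of all genes 75.1% differed then in igo1∆ (38.8% higher and 36.4% lower) and 72.5% in ppk18∆ cek1∆ cells (37.6% higher and 34.8% lower). At 4 h the 10 genes had a median log2 fold change of 0.59 in igo1∆ and 0.79 in ppk18∆ cek1∆ cells, beside 0.02 and 0.03 for all genes. Among all genes called at 4 h, 51.6% were higher in igo1∆ and 51.9% in ppk18∆ cek1∆ cells, which became 37.9% and 35.4% with equal totals. At 1 h the share in ppk18∆ cek1∆ was 51.5% and became 41.3%. The same wild type libraries serve both mutants, so the 2 comparisons are not independent.

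**Figure D2:**
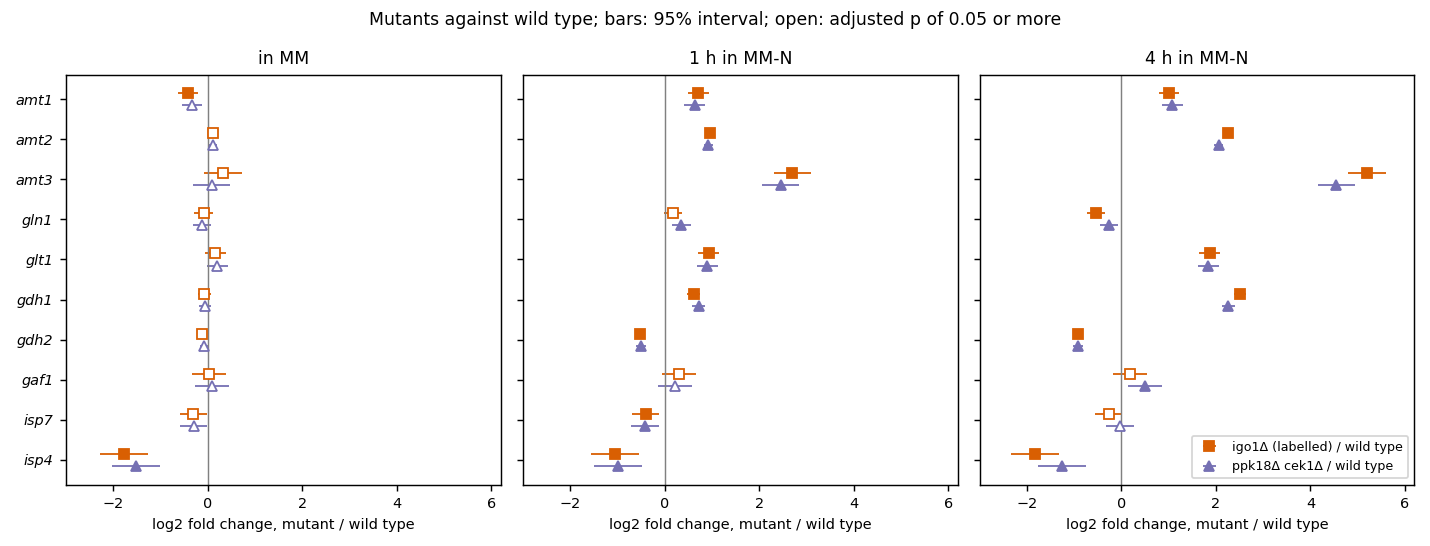
Log2 fold change of each gene in igo1∆ (squares) and ppk18∆ cek1∆ cells (triangles) over the wild type, in MM, at 1 h and at 4 h of starvation, with 95% intervals from the limma fit. Filled points passed an adjusted p of 0.05. At 4 h amt3 lies at 5.19 and 4.55, gdh1 at 2.51 and 2.27 and isp4 at -1.83 and -1.26.

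All 3 ammonium transporter genes were higher in the starved mutants, and amt3 differed most. At 4 h amt3 had 2516, 2804 and 2857 normalized counts in igo1∆ and 1715, 1989 and 1549 in ppk18∆ cek1∆ cells, against 68.3, 73.2 and 79.0 in the wild type. The difference was 5.19 ± 0.19 in igo1∆ (36.6-fold, adjusted p = 5.94e-17) and 4.55 ± 0.19 in ppk18∆ cek1∆ cells (23.4-fold, adjusted p = 9.52e-16), and 4.64 without replicate 3 of ppk18∆ cek1∆. This placed amt3 at rank 31 and rank 28 of 6036 genes. Already at 1 h it had 1112, 1149 and 988 normalized counts in igo1∆ and 979, 919 and 835 in ppk18∆ cek1∆ cells, against 157, 173 and 166 in the wild type (2.70 ± 0.19 and 2.45 ± 0.19, adjusted p = 3.27e-11 and 2.21e-10). The genes on the other strand of amt3 went the other way at 4 h: SPNCRNA.859 was lower by 0.98 on the log2 scale in igo1∆ and by 0.69 in ppk18∆ cek1∆ (adjusted p = 1.40e-09 and 4.76e-07), and SPAC2E1P3.01 by 0.53 and 0.46 (adjusted p = 0.000126 and 0.000638).

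The gene amt2, which fell in the starved wild type, rose in both mutants, 2.48-fold in igo1∆ and 2.19-fold in ppk18∆ cek1∆ cells by 4 h. At 4 h it had 8415, 9196 and 9436 normalized counts in igo1∆ and 7845, 8129 and 7587 in ppk18∆ cek1∆ cells, against 1880, 1922 and 1860 in the wild type. These are differences of 2.25 ± 0.05 (4.77-fold, adjusted p = 1.43e-21) and 2.06 ± 0.05 (4.16-fold, adjusted p = 1.07e-20), the second of which was 2.08 without replicate 3. At 1 h the differences were 0.95 ± 0.05 and 0.92 ± 0.05, with every mutant library above every wild type library. The non-coding SPNCRNA.758 on the other strand stayed at means of 2.09 in igo1∆ and 3.39 in ppk18∆ cek1∆ cells at 4 h, against 13.6 normalized counts in the wild type.

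The gene amt1 rose in every strain and rose further in the mutants. It had 41380, 37976 and 39140 normalized counts at 4 h in igo1∆ and 36942, 36517 and 52992 in ppk18∆ cek1∆ cells, against 19829, 19803 and 19413 in the wild type. The difference was 1.00 ± 0.10 in igo1∆ (adjusted p = 1.03e-08) and 1.08 ± 0.10 in ppk18∆ cek1∆ cells (adjusted p = 3.90e-09). Without the outlying replicate 3 of ppk18∆ cek1∆ it was 0.90. At 1 h the differences were 0.71 ± 0.10 and 0.63 ± 0.10, and again no libraries overlapped.

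**Figure D3:**
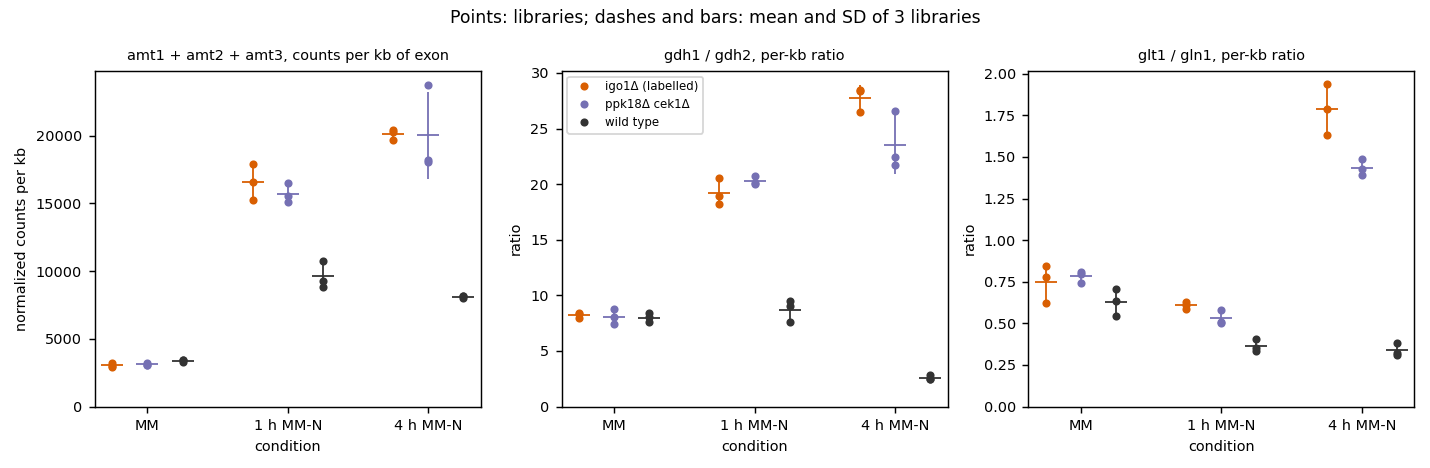
Left, summed normalized counts per kb of exon of amt1, amt2 and amt3. Middle and right, the per-kb ratios of gdh1 to gdh2 and of glt1 to gln1 within each library, for igo1∆, ppk18∆ cek1∆ and the wild type in MM, at 1 h and at 4 h of starvation. Points are libraries and bars are the mean and SD of 3, and at 4 h the gdh1 to gdh2 ratio averaged 27.8 in igo1∆, 23.6 in ppk18∆ cek1∆ and 2.59 in the wild type.

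Set on a scale of counts per kb of exon, amt1 dominated in starvation. On that scale amt1 and amt2 were near equal in the MM libraries of the time course. It depends on annotated exon lengths that include non-coding bases: 2729 for amt1, 1494 of them coding, and 2200 for amt2, 1539 of them coding. Before division by length, wild type means in MM were 4956 normalized counts for amt1 and 3350 for amt2. In these MM libraries, amt1 made up 44.5% ± 1.5 of the summed per-kb counts of the 3 transporters in igo1∆ and 46.3% ± 1.7 in ppk18∆ cek1∆ cells, against 53.8% ± 0.4 in the wild type (SD, n = 3 each). At 4 h its share was 71.9% ± 2.0 and 76.7% ± 4.4, against 88.9% ± 0.1 in the wild type. In the second experiment, with ammonium present, the share of amt1 was 84.0% ± 0.4 in the overexpression strain and 70.8% ± 0.3 in the wild type (SD, n = 2 each), so near equality held only in the time course. The share of amt3 at 4 h was 7.72% ± 0.61 in igo1∆ and 5.12% ± 1.28 in ppk18∆ cek1∆ cells, against 0.516% ± 0.043 in the wild type. The summed level of the 3 genes at 4 h averaged 20125 counts per kb in igo1∆ and 20013 in ppk18∆ cek1∆ cells, against 8112 in the wild type. Without replicate 3, the values of ppk18∆ cek1∆ cells at 4 h were 74.2% for amt1, 5.81% for amt3 and 18145 counts per kb.

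Among the enzymes, gdh1 and glt1 stood higher in the starved mutants. At 4 h gdh1 had 50972, 55519 and 52226 normalized counts in igo1∆ and 44688, 47230 and 42066 in ppk18∆ cek1∆ cells, against 8712, 9922 and 9224 in the wild type. The difference was 2.51 ± 0.07 (5.70-fold, adjusted p = 9.45e-20) in igo1∆ and 2.27 ± 0.07 (4.81-fold, adjusted p = 9.04e-19) in ppk18∆ cek1∆ cells, or 2.31 without replicate 3. At 1 h the mutants were higher by 0.62 ± 0.07 and 0.72 ± 0.07. Thus gdh1 fell below its level in MM in the wild type, and in the mutants it was 2.27-fold and 1.89-fold above that level at 4 h. Of its exon bases 7.33% lie under the neighbours tti1 and lmb1, which were lower in the mutants at 4 h, tti1 by 0.32 in igo1∆ and 0.38 in ppk18∆ cek1∆ cells, and lmb1 by 1.04 and 0.84. With a non-coding gene that was not analysed here counted as well, 49.0% of its exon bases are covered.

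Glutamate synthase was likewise higher in the starved mutants than in the wild type. At 4 h glt1 had 127111, 117255 and 123660 normalized counts in igo1∆ and 111723, 111390 and 137208 in ppk18∆ cek1∆ cells, against 34918, 32644 and 33032 in the wild type (1.87 ± 0.11 and 1.83 ± 0.11, adjusted p = 2.17e-13 and 4.06e-13), and the value in ppk18∆ cek1∆ was 1.73 without replicate 3. At 1 h the differences were 0.93 ± 0.11 and 0.90 ± 0.11. Every mutant library lay above every wild type library at both times.

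Glutamine synthetase, the partner of glutamate synthase in this route, did not follow it. At 4 h gln1 had 20527, 15982 and 18274 normalized counts in igo1∆ cells, against 24065, 27797 and 27080 in the wild type (-0.53 ± 0.09, adjusted p = 1.97e-05). In ppk18∆ cek1∆ cells it had 19813, 20594 and 26076 and overlapped the wild type (-0.26 ± 0.09, adjusted p = 0.0171). Only the outlying replicate 3 overlapped, and without it the difference was -0.38 (adjusted p = 0.000554). The call made with all libraries (-0.26) was lost without wild type replicate 2 or 3 (-0.21 and -0.23) or ppk18∆ cek1∆ replicate 1 or 2 (-0.18 and -0.21). It was also lost with only the groups compared. At 1 h gln1 was higher in ppk18∆ cek1∆ (0.36 ± 0.09, adjusted p = 0.0022), a call that was lost with quantile normalization (0.15, adjusted p = 0.115), and did not pass the test in igo1∆ cells (0.18 ± 0.09, adjusted p = 0.089). With the replicate number as a block in a fit of these 2 groups it did pass there (0.18, adjusted p = 0.0058), and the same numbers go together in this comparison. The per-kb ratio of glt1 to gln1 at 4 h was 1.79 ± 0.15 in igo1∆ and 1.44 ± 0.05 in ppk18∆ cek1∆ cells, against 0.338 ± 0.039 in the wild type (SD, n = 3 each), and 1.46 in ppk18∆ cek1∆ without replicate 3.

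The catabolic dehydrogenase gdh2 went in the other direction from gdh1. After 4 h it had 3342, 3403 and 3193 normalized counts in igo1∆ and 3471, 3094 and 3368 in ppk18∆ cek1∆ cells, against 6120, 6065 and 6559 in the wild type. The difference was -0.91 ± 0.05 in igo1∆ (adjusted p = 1.04e-13) and -0.92 ± 0.05 in ppk18∆ cek1∆ cells (adjusted p = 1.30e-13), and at 1 h it was -0.53 ± 0.05 and -0.50 ± 0.05. The per-kb ratio of gdh1 to gdh2 within a library does not depend on the scaling. In MM it was 8.26 ± 0.22 in igo1∆ and 8.08 ± 0.65 in ppk18∆ cek1∆ cells, against 8.00 ± 0.39 in the wild type. The ratio at 4 h was 27.8 ± 1.1 and 23.6 ± 2.6, against 2.59 ± 0.22 (SD, n = 3 each), and the libraries of the mutants and the wild type did not overlap. Without replicate 3 of ppk18∆ cek1∆ the difference of gdh2 was -0.93 and the ratio was 24.5.

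The peptide transporter isp4 stayed lower in the mutants throughout. At 1 h it had 13103, 11287 and 11331 normalized counts in igo1∆ and 13230, 10565 and 13783 in ppk18∆ cek1∆ cells, against 31197, 22452 and 21519 in the wild type (-1.06 ± 0.25 and -0.99 ± 0.25, adjusted p = 0.000696 and 0.00141). At 4 h it had 23976, 17384 and 19607 in igo1∆ and 26922, 21170 and 47756 in ppk18∆ cek1∆ cells, against 75382, 67954 and 72399 in the wild type. The difference was -1.83 ± 0.25 in igo1∆ (adjusted p = 4.93e-07) and -1.26 ± 0.25 in ppk18∆ cek1∆ cells (adjusted p = 8.56e-05), and -1.59 without replicate 3 of ppk18∆ cek1∆.

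The genes isp7 and gaf1 were close to the wild type in the mutants. At 1 h isp7 had 23596, 19095 and 18593 normalized counts in igo1∆ and 21772, 17211 and 21717 in ppk18∆ cek1∆ cells, against 31712, 25100 and 24174 in the wild type (-0.40 ± 0.14 and -0.41 ± 0.14, adjusted p = 0.0159 and 0.0139). These calls were lost without wild type replicate 1 (-0.28 and -0.29), without igo1∆ replicate 2 or 3 (-0.36 and -0.34) and without ppk18∆ cek1∆ replicate 2 (-0.30). At 4 h isp7 did not pass the test, with 95% intervals of -0.55 to 0.02 in igo1∆ and -0.32 to 0.26 in ppk18∆ cek1∆ cells. In igo1∆ it did pass under several other settings, at -0.44 with equal totals, -0.55 with quantile normalization, -0.32 in edgeR and -0.26 with only the groups compared. In ppk18∆ cek1∆ it passed only with quantile normalization (-0.32, adjusted p = 0.0155) and was -0.20 without replicate 3. For gaf1 at 4 h, 7204, 6051 and 6336 normalized counts in igo1∆ and 7614, 6603 and 10745 in ppk18∆ cek1∆ cells stood against 6023, 5442 and 5801 in the wild type. It passed the test in ppk18∆ cek1∆ (0.50 ± 0.17, adjusted p = 0.0134) and not in igo1∆ cells (0.18 ± 0.17, adjusted p = 0.361), although all 3 igo1∆ libraries lay above those of the wild type and it passed with only the groups compared (adjusted p = 0.0293). Without replicate 3 of ppk18∆ cek1∆ it was 0.30 and did not pass (adjusted p = 0.126), and with equal totals it was 0.31 (adjusted p = 0.102). At 1 h gaf1 did not pass in either mutant (0.31 ± 0.17 and 0.22 ± 0.17), while without wild type replicate 1 it did (0.54 and 0.45, adjusted p = 0.0071 and 0.0254), as it did in igo1∆ with the replicate block in a fit of those 2 groups (0.31, adjusted p = 0.0069).

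The response of each mutant to starvation was then compared with that of the wild type. Within igo1∆ cells 9 genes rose and 1 fell at 1 h, against 77.8% of all genes called (39.7% higher and 38.1% lower), and 8 rose and 1 fell at 4 h, against 83.3% (42.1% higher and 41.2% lower). Within ppk18∆ cek1∆ cells 8 rose and 1 fell at 1 h, against 77.5% (39.2% higher and 38.2% lower), and 9 rose and 1 fell at 4 h, with or without replicate 3, against 82.8% (41.9% higher and 40.9% lower). Among all genes called, the higher share in igo1∆ was 51.1% at 1 h and 50.5% at 4 h and became 73.4% and 64.7% with equal totals, and in ppk18∆ cek1∆ cells 50.7% and 50.6% became 72.2% and 64.3%. The call of gaf1 in igo1∆ at 1 h (0.40 ± 0.17, adjusted p = 0.0438) was lost in edgeR and DESeq2 (adjusted p = 0.082 and 0.055) and without igo1∆ MM replicate 2 or 3 or 1 h replicate 1 or 2 (0.29 to 0.43). That of gln1 in igo1∆ at 4 h did not pass (0.18 ± 0.09, adjusted p = 0.0724), but passed with the replicate block in a fit of these 2 groups (adjusted p = 0.0450) and with equal totals (0.48, adjusted p = 3.52e-06). In both mutants gdh2 fell on starvation, by 0.57 in igo1∆ and 0.62 in ppk18∆ cek1∆ cells at 4 h (adjusted p = 2.95e-10 and 6.53e-11). Its smaller falls at 1 h, of 0.26 and 0.29, turned to rises of 0.13 and 0.07 with equal totals.

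The difference of the responses, an interaction term in the same fit, passed the test for 6 genes in igo1∆ and 7 in ppk18∆ cek1∆ cells at 1 h. Of all genes 47.8% passed it in igo1∆ (25.1% higher and 22.7% lower) and 45.3% in ppk18∆ cek1∆ cells (23.7% higher and 21.7% lower). At 4 h it passed for 7 genes in igo1∆, against 64.3% of all genes (34.2% higher and 30.1% lower), and for 6 in ppk18∆ cek1∆ cells, against 61.0% (32.9% higher and 28.1% lower). The 5 genes amt1, amt2, amt3, gdh1 and glt1 had larger changes in both mutants at both times, and gdh2 had lower ones. At 4 h the extra change of amt3 was 4.88 ± 0.27 in igo1∆ and 4.47 ± 0.27 in ppk18∆ cek1∆ cells, that of gdh1 2.59 ± 0.09 and 2.33 ± 0.09, and that of glt1 1.71 ± 0.15 and 1.63 ± 0.15. Without replicate 3 of ppk18∆ cek1∆ these terms were 4.56, 2.37 and 1.53 there. In that fit 6 genes passed, against 32.3% of all genes higher and 27.8% lower. Among all genes called for this term, the share that was higher was 53.2% in igo1∆ and 53.9% in ppk18∆ cek1∆ cells at 4 h, and 37.7% and 34.4% with equal totals. At 1 h it was 52.2% in ppk18∆ cek1∆ cells, and 39.9% with equal totals.

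For isp4, isp7 and gaf1 no interaction passed the test in the fit of all groups. The peptide transporter isp4 rose 16.6-fold in igo1∆ and 20.7-fold in ppk18∆ cek1∆ cells by 4 h, against 17.2-fold in the wild type, from the lower levels in MM given above. Without replicate 3 the rise in ppk18∆ cek1∆ cells was 16.4-fold. The extra change was -0.06 with a 95% interval of -0.77 to 0.66 in igo1∆ cells and 0.26 with an interval of -0.45 to 0.98 in ppk18∆ cek1∆ cells. The second value turned to -0.07 without replicate 3, with an interval of -0.70 to 0.57. For isp7 the intervals at 4 h were -0.36 to 0.45 in igo1∆ and -0.14 to 0.68 in ppk18∆ cek1∆ cells, or -0.28 to 0.47 without replicate 3. At 1 h the term for isp4 in igo1∆ was 0.72 (adjusted p = 0.092) and passed with only the groups compared (adjusted p = 0.0129) and without wild type 1 h replicate 1 (0.89, adjusted p = 0.0466).

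The endosulfine and Greatwall mutants were also set against each other. At 1 h none of the 10 genes differed between igo1∆ and ppk18∆ cek1∆ cells in limma, edgeR or DESeq2, none had an unadjusted p below 0.05 in limma, and 0.265% of all genes passed (0.116% higher and 0.149% lower), which is 16 genes, or 32 with the replicate block in a fit of these 2 groups. The 95% interval of the log2 fold change at 1 h ran from -0.24 to 0.03 for gdh1 and from -0.14 to 0.29 for amt1, and it was widest for isp4, from -0.58 to 0.44. At 4 h 3 genes were higher in igo1∆ cells, against 6.00% of all genes called (4.41% higher and 1.59% lower): amt3 (0.64 ± 0.19, adjusted p = 0.0474), gdh1 (0.25 ± 0.07, adjusted p = 0.0261) and amt2 (0.20 ± 0.05, adjusted p = 0.0105). None of the 3 calls held without replicate 3 of ppk18∆ cek1∆ (0.56, 0.20 and 0.17), or without igo1∆ replicate 2 (0.62, 0.21 and 0.18) or replicate 3 (0.61, 0.25 and 0.16). The call of amt3 was also lost without igo1∆ replicate 1 (0.70), and those of amt3 and gdh1 without ppk18∆ cek1∆ replicate 1 (0.63 and 0.25). Without ppk18∆ cek1∆ replicate 2 isp4 passed as well (-0.83). The gene gln1 was not called (-0.28 ± 0.09), passed with equal totals (-0.26), quantile normalization (-0.30) and DESeq2 (-0.28) and without replicate 1 of either mutant (-0.36 and -0.35), and was -0.15 without replicate 3 of ppk18∆ cek1∆.

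Overexpression of ppk18+ in MM was used to see which of these genes move while nitrogen is present. Of the 10 genes 5 were higher and none was lower (limma, and likewise in edgeR and DESeq2), against 57.4% of the 5863 genes tested (29.6% higher and 27.8% lower). The peptide transporter isp4 had 41290 and 36933 normalized counts in the overexpression strain, against 6617 and 8146 in the wild type (2.41 ± 0.10, 5.32-fold, adjusted p = 9.17e-08), and ranked 40 of all genes. The gene isp7 had 18566 and 16962, against 6241 and 6568 (1.47 ± 0.06, 2.77-fold, adjusted p = 1.48e-07). In both cases the overexpression libraries lay far above those of the wild type.

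**Figure D4:**
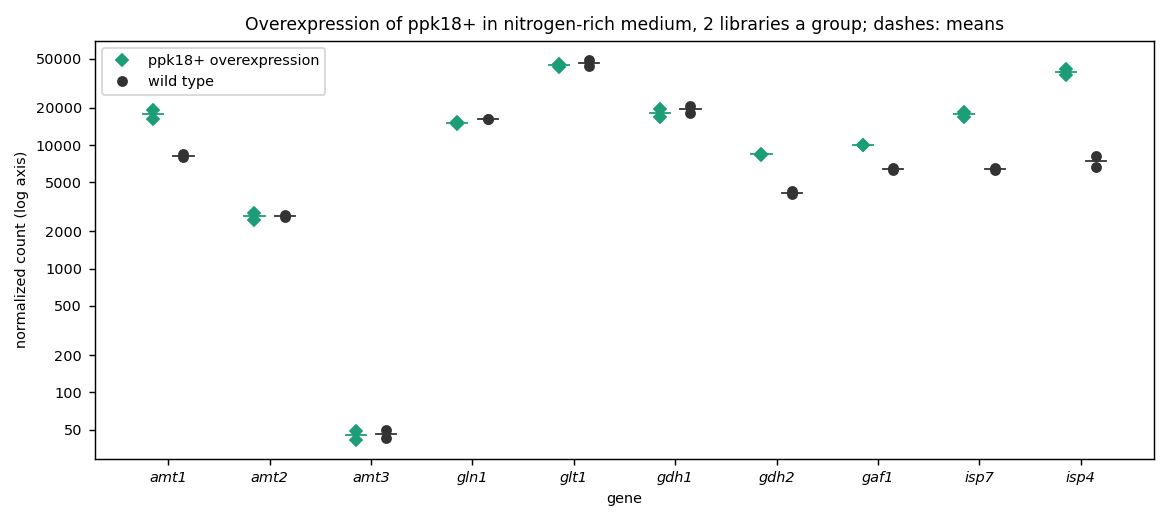
Normalized counts (log axis) of the 10 genes in 2 libraries of cells overexpressing ppk18+ (diamonds) and 2 of the wild type (circles), with dashes at the means. The overexpression libraries lie above the wild type for amt1, gdh2, gaf1, isp7 and isp4 and below it for gln1, and those of amt2, amt3, glt1 and gdh1 overlap.

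Of the transporters and enzymes, amt1 and gdh2 were higher in the overexpression strain. The gene amt1 had 19262 and 16332 normalized counts, against 8454 and 7975 in the wild type (1.11 ± 0.08, adjusted p = 3.31e-06). The catabolic dehydrogenase gdh2 had 8340 and 8428, against 4220 and 4013 (1.03 ± 0.06, adjusted p = 5.64e-07), and the factor gene gaf1 had 10072 and 10077, against 6467 and 6281 (0.66 ± 0.05, adjusted p = 7.13e-06). The libraries of the 2 strains did not overlap for any of these genes.

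The other 5 genes did not pass the test. For amt2 the 95% interval of the log2 fold change was -0.16 to 0.15, for gdh1 -0.29 to 0.11, for glt1 -0.26 to 0.12 and for gln1 -0.25 to 0.01. The libraries of gln1 did not overlap, with 15222 and 14865 in the overexpression strain, against 16335 and 16281 in the wild type. That of amt3 was wide, -0.56 to 0.49, at 41.5 and 48.4 normalized counts in the overexpression strain, against 49.7 and 42.5 in the wild type. The per-kb ratio of gdh1 to gdh2 was 4.10 and 3.48 in the overexpression libraries, against 7.44 and 8.99 in the wild type.

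The order of the genes by level, compared as normalized counts per kb of exon, changed with nitrogen. It rests on annotated exon lengths and not on coding lengths, such as 3059 bases for isp7, 1194 of them coding, and 1992 for gln1, 1080 of them coding. In wild type cells in MM it was gdh1 (11865), gln1 (8575), glt1 (5369), amt1 (1816), isp4 (1677), amt2 (1523), gdh2 (1483), isp7 (1165), gaf1 (854) and amt3 (34.7), and the neighbours from amt1 to gdh2 overlapped in their libraries. After 4 h isp4 led in the wild type with 28776 counts per kb, followed by gln1 with 13210 and isp7 with 10791, and gdh1 (4479) and glt1 (4444) overlapped. In the mutants gdh1 led at 4 h, with 25521 counts per kb in igo1∆ and 21544 in ppk18∆ cek1∆ cells, and glt1 was next at 16259 and 15919. The lowest gene at 4 h was gdh2 in the mutants, at 918 counts per kb in each, where its libraries overlapped those of amt3 in ppk18∆ cek1∆ cells, and amt3 in the wild type, at 41.9.

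Over the 9 groups of the time course, the gene outside the group with the most similar pattern was named for each member whose means spanned at least 1 on the log2 scale, from 3329 such genes. This is a description over 9 means of libraries that share their scaling, with no test. It was an L-asparaginase gene (SPBPB21E7.09) for amt1 (Pearson r = 0.998), the anion transporter gene oac1 for amt2 (0.999), SPBC18E5.15 for amt3 (0.998) and an amino acid permease gene (SPAPB24D3.02c) for gln1 (0.986). It was an N-acetyltransferase gene (SPBC1271.07c) for gdh1 (0.986), an agmatinase gene (SPAC11D3.09) for glt1 (0.993), efc25, which encodes a Ras exchange factor, for gaf1 (0.990), a transporter gene (SPAC1399.01c) for isp7 (0.998) and the peptide transporter gene ptr2 for isp4 (0.996). The means of gdh2 spanned 0.92 and no gene was named for it.

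Other nitrogen genes were described by their lists for comparison, with no test of a list. Of 12 genes for the uptake and breakdown of other nitrogen sources, 8 rose and 3 fell in the wild type at 4 h, where 39.9% of all genes rose and 39.4% fell, and their median log2 fold change was 1.01, beside 0.01 for all genes. The largest changes were those of the xanthine dioxygenase gene xan1 (5.47 at 1 h and 5.42 at 4 h) and the uricase gene uro1 (4.18 and 3.30). Against the wild type at 4 h, 7 were higher and 5 lower in igo1∆ and 7 higher and 3 lower in ppk18∆ cek1∆ cells, each with a median of 0.23. Of all genes 38.8% were higher and 36.4% lower in igo1∆, and 37.6% and 34.8% in ppk18∆ cek1∆ cells. The gene xan1 was lower by 1.63 in igo1∆ and 1.34 in ppk18∆ cek1∆ cells (adjusted p = 2.65e-11 and 9.35e-10). With ppk18+ overexpression 4 were higher and 6 lower, where 29.6% of all genes were higher and 27.8% lower, and xan1 was higher by 1.56 (adjusted p = 6.27e-07).

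**Figure D5:**
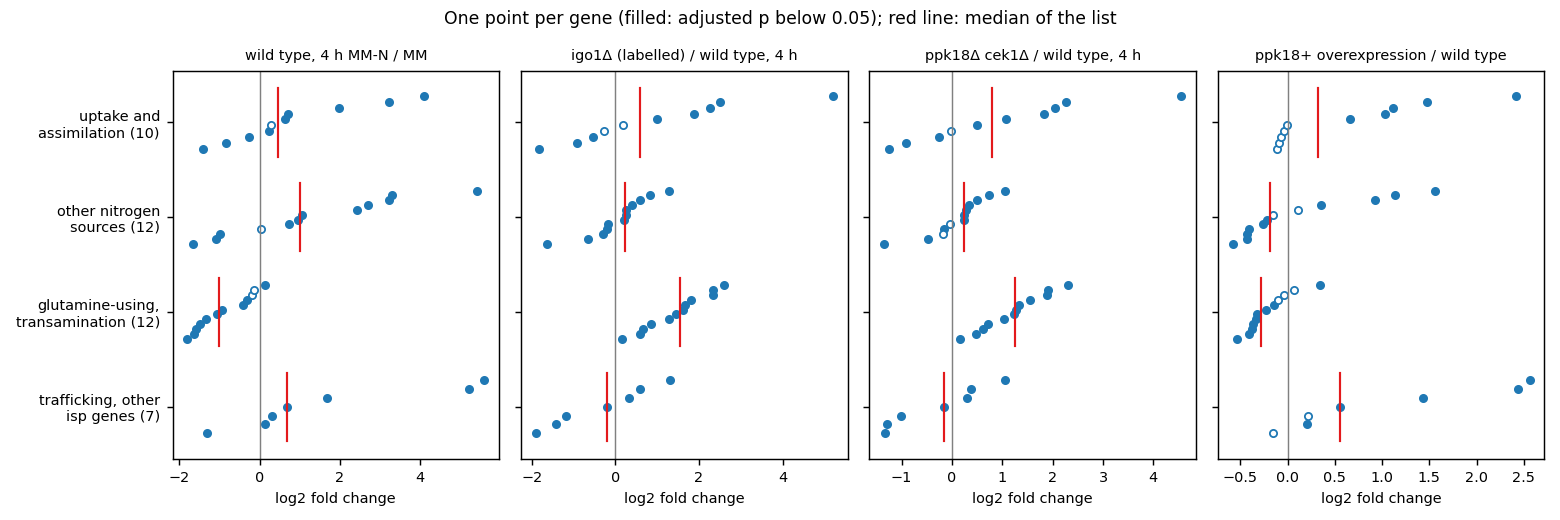
Log2 fold changes of the 10 uptake and assimilation genes and of 3 lists of other nitrogen genes (rows), 1 point per gene, in the starved wild type, in each mutant against the wild type at 4 h in MM-N, and in the ppk18+ overexpression strain. Filled points passed an adjusted p of 0.05 and red lines are medians, which for the glutamine-using enzymes lie at -1.003, 1.53, 1.25 and -0.28.

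Of 12 enzymes that use glutamine or transfer amino groups, most fell late in the starved wild type. At 1 h 6 fell and 4 rose, with a median of -0.07, where 37.5% of all genes fell and 40.3% rose. At 4 h 9 fell and 1 rose, with a median of -1.003, where 39.4% fell and 39.9% rose, and trp3, for anthranilate synthase, fell by 1.80 and ura1, for pyrimidine synthesis, fell by 1.48 (adjusted p = 3.93e-19 and 3.77e-18). Against the wild type at 4 h all 12 were higher in igo1∆ and all 12 in ppk18∆ cek1∆ cells, with medians of 1.53 and 1.25, where 38.8% and 37.6% of all genes were higher. In igo1∆ trp3 was higher by 1.45 and ura1 by 0.66, and in ppk18∆ cek1∆ cells by 1.03 and 0.63. With ppk18+ overexpression 8 were lower and 1 higher, with a median of -0.28, beside 27.8% of all genes lower and 29.6% higher.

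Of 7 genes for the sorting of transporters and other isp genes, 6 rose and 1 fell in the wild type at 4 h, where 39.9% of all genes rose and 39.4% fell. The largest rises were those of the amino acid transporter gene isp5 (6.01 at 1 h and 5.60 at 4 h) and the vacuolar protease gene isp6 (4.62 and 5.21). In both mutants 3 of the 7 were higher than in the wild type at 4 h and 4 lower, beside 38.8% of all genes higher and 36.4% lower in igo1∆ and 37.6% and 34.8% in ppk18∆ cek1∆ cells. The gene isp5 was lower by 1.90 in igo1∆ and 1.33 in ppk18∆ cek1∆ cells, and isp6 by 1.43 and 1.30. With ppk18+ overexpression 5 of the 7 were higher, beside 29.6% of all genes, isp5 by 2.56 and isp6 by 2.44 (adjusted p = 3.68e-08 and 4.22e-09). Without replicate 3 of ppk18∆ cek1∆ at 4 h, the counts of genes called in that strain against the wild type were the same in each of the 3 lists, with medians of 0.25 for other nitrogen sources, 1.21 for the glutamine-using enzymes and -0.17 here.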

How the data were processed

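RNA was sequenced by the authors from 27 nitrogen starvation libraries and 4 ppk18+ overexpression libraries of fission yeast. Reads were trimmed where needed with Trimmomatic 0.38, aligned by the authors with HISAT2 2.1.0 to a genome from PomBase (ASM294v2 in the submitters' processing notes) and counted per gene with featureCounts of Subread 1.6.3. The signal values the authors deposited are read counts scaled by size factors from DESeq2. In each library 100% of the values were whole multiples of 1 step (within 0.001), so read numbers were recovered. Each table has its own normalization, and no test crosses the 2 tables. RefSeq annotation ASM294v3 gave names, products, exon lengths and overlaps only, for 6852 of 7001 genes.

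Linear models of log2(normalized count + 1) were made in R 4.3.3 using limma 3.58.1 with its trend option, over genes whose mean reached 10, in a fit of all 9 groups of the time course and a fit of the 4 overexpression libraries. Benjamini-Hochberg adjustment ran over every gene tested, and adjusted p below 0.05 was called. Fold changes on this scale understate those of low genes. Intervals are 95% intervals of limma. The code was tested on simulated data.

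The 10 genes and the lists were chosen with earlier results of these data known. All 10 genes are named, with the genes deleted or overexpressed, the 2 genes of each list with the largest change in the wild type, and the genes of most similar pattern. The list of other nitrogen sources had 16 names, 3 of which (dur3-1, dur3-2 and dur3-3) found no gene, and ure1 and ure2 are the same gene. Of 15 enzyme names, pdx1, lys1 and leu2 were left out because their annotated products use no glutamine and transfer no amino group, which was decided after the files were read. The chi-square per gene between replicates was 8.50 to 82.2 over 29 pairs, so none were copies.

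Replicate numbers come from the labels. The correlation of deviations from the group means was over 0.1 in every pair for igo1∆ against the wild type at 1 h (0.17 to 0.26), igo1∆ against ppk18∆ cek1∆ at 1 h (0.14 to 0.43) and igo1∆ at 4 h against MM (0.10 to 0.18), and in no other comparison. Other settings tried were no filter, a pseudocount of 10, a minimum mean of 50, equal totals, quantile normalization, edgeR 4.0.16 and DESeq2 1.42.0 on the recovered reads, the replicate block, only the groups compared, and leaving out each library. Plots used matplotlib 3.10.9 and Python 3.11.15.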

Additional observations from a re-analysis of the deposited data

Results flagged for a closer look

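The change of some of these genes on nitrogen withdrawal differed between a mutant and the wild type, by the interaction term of the limma fit (adjusted p below 0.05). The values are the change in the mutant less that in the wild type, on the log2 scale, and both mutants share the wild type libraries. In igo1∆ at 1 h the extra change was 1.13 for amt1, 0.84 for amt2, 2.38 for amt3, 0.69 for gdh1 and 0.77 for glt1, and it was -0.41 for gdh2. At 4 h it was 1.42 for amt1, 2.14 for amt2, 4.88 for amt3, 2.59 for gdh1 and 1.71 for glt1, with -0.44 for gln1 and -0.79 for gdh2.

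In ppk18∆ cek1∆ cells at 1 h the extra change was 0.97 for amt1, 0.82 for amt2, 2.37 for amt3, 0.48 for gln1, 0.78 for gdh1 and 0.70 for glt1, and it was -0.43 for gdh2. At 4 h it was 1.41 for amt1, 1.96 for amt2, 4.47 for amt3, 2.33 for gdh1 and 1.63 for glt1, with -0.84 for gdh2. The 4 h term of gln1 in ppk18∆ cek1∆ did not pass (-0.13, adjusted p = 0.396) but passed at -0.33 with equal totals and at -0.52 with quantile normalization, and its 1 h term did not pass with quantile normalization (0.23).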

How the results depend on the processing

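Of the values computed under other settings, 3304 kept their side of the threshold, 57 were no longer past it and 43 were newly past it. A further 5 changed direction with a call in the main fit or in the other one. Values called in neither fit could change sign and are still among the 3304. With equal totals the changed directions were amt2 in the wild type at 1 h (0.13), glt1 in the wild type at 4 h (0.20) and gdh2 at 1 h in igo1∆ (0.13) and ppk18∆ cek1∆ (0.067), and with quantile normalization glt1 in the wild type at 4 h (0.22). For igo1∆ against ppk18∆ cek1∆ at 4 h, 3 genes were called, against 1 with quantile normalization, 1 with only the groups compared and 0 to 4 when a library was left out. For igo1∆ in MM, 2 were called, against 1 in edgeR and 1 to 2 with a library left out. For ppk18∆ cek1∆ in MM, 1 was called, against 2 with only the groups compared. With 1 library left out, the count of genes called moved by at most 1 in every other comparison. The causes were not tested.

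Adding the replicate number as a block to the fit of all groups changed 1 call, amt3 in igo1∆ against ppk18∆ cek1∆ at 4 h (0.64, adjusted p = 0.051). With the block in a fit of only the groups compared, 0 genes were called there and 2 in ppk18∆ cek1∆ in MM. In such fits gaf1 in igo1∆ against the wild type at 4 h was called as well (0.18, adjusted p = 0.0040), a comparison where the same numbers do not go together. For overexpression 5 genes were called with the block and 5 with the numbers crossed, a pairing added after seeing the data because the pair correlated at -0.14. Over all genes, calls in igo1∆ in MM were 130, against 81 in edgeR, 51 with only the groups compared and 69 with the block as well, and in ppk18∆ cek1∆ in MM 101, against 20 and 39. For igo1∆ against ppk18∆ cek1∆ they were 16 at 1 h, against 28 in edgeR, 55 in DESeq2 and 32 with the block in a fit of these groups, and 362 at 4 h, against 77 with only the groups compared and 18 with the block as well. Depth limits amt3 most, with 41.5 to 95.1 normalized counts in the libraries with ammonium.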

Other observations

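Genes for the M-factor pheromone and the P-factor receptor, which M cells use in mating, were lower in the mutants at 4 h of starvation. The summed normalized counts of mfm1, mfm2, mfm3 and mam2 at 4 h were 172 to 311 in igo1∆ and 300 to 412 in ppk18∆ cek1∆ cells, against 14386 to 20709 in the wild type. With ppk18+ overexpression they were 2112 to 2616, against 637 to 885 in the wild type. The summed counts of the P-cell genes map2 and map3 lay between 172 and 336 in all libraries of the time course. At 4 h these sums were 172 to 180 in igo1∆ and 189 to 240 in ppk18∆ cek1∆ cells, against 229 to 284 in the wild type.

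The genes pdx1, lys1 and leu2, which were left out of the glutamine list, all fell in the wild type at 4 h. Their median was -1.23 on the log2 scale, where 39.4% of all genes fell. In igo1∆ cells at 4 h all 3 were higher than in the wild type (median 2.61), where 38.8% of all genes were higher. In ppk18∆ cek1∆ cells at 4 h all 3 were higher as well (median 2.31), where 37.6% of all genes were higher. With ppk18+ overexpression all 3 were lower (median -0.55), where 27.8% of all genes were lower.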
